A study of Mus musculus with 16 samples.

Results

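Fibronectin and 9 other matrix glycoprotein genes were followed across 16 mouse prostate tumours: Fn1, Vcan, Tnc, Sparc, Spp1, Thbs1, Thbs2, Fbn1, Bgn and Fbln2. The 10 genes were chosen by name as glycoproteins and proteoglycans of the extracellular matrix, out of 55414 gene IDs in the count table. The choice was made with earlier results of these data known, so counts beside the share over all genes are a description. All 10 were counted in every library and passed the filter on low counts, which left 18946 genes for testing.

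The tumours grew from B6MyC-CaP, a single prostate cancer line that traces back to Hi-MYC mice, where a transgene drives MYC in prostate epithelium, on a C57BL/6 background. The cells were implanted subcutaneously in C57BL/6 males aged 6 weeks, so every tumour has the same line, strain and sex of host, and a host with its own immune cells and stroma. The 4 groups of 4 tumours were Vehicle (normal chow at will), ENZ (normal chow at will and the antiandrogen enzalutamide, given daily by oral gavage at 20 mg/kg), ADF (alternate-day fasting, 24 h without food and then 24 h with food) and ADF+ENZ (both treatments). Tumours carry their own numbers in the labels, which do not state 1 tumour per mouse, so the p-values below cover the spread among these samples, part of which may be technical. The model is 1 cell line at a site outside the prostate, and the sources used here do not give the day of the fasting cycle on which tumours were taken.

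Matrix glycoproteins are secreted proteins that assemble between cells and are read by cell surface receptors. Fibronectin is laid down as fibrils when cells pull on it through integrins, and collagen, fibrillin microfibrils, fibulins and latent growth factors are deposited on that scaffold. Others, called matricellular proteins, build little structure and instead change how cells attach: tenascin-C, SPARC, osteopontin (Spp1) and the thrombospondins are the usual examples. In tumours these genes are known as products of fibroblasts, of macrophages in the case of osteopontin, and of the tumour cells themselves.

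The upstream sequences of the 4 members outside Fn1 that changed in at least 1 comparison are shown, because the values below turn on them. Each line gives the 250 bases before the RefSeq start of the gene, 5′ to 3′ on the gene's strand, from the RefSeq table of build GRCm38.p6, in which 8 of the 10 members have an entry. Capitals mark every match to the motifs searched. Fbln2 lies at chr6:91212514-91212763 on the plus strand, Vcan at chr13:89742513-89742762 on the minus strand, Sparc at chr11:55420081-55420330 on the minus strand and Spp1 (the first of its 2 listed starts) at chr5:104434861-104435110 on the plus strand.
Fbln2: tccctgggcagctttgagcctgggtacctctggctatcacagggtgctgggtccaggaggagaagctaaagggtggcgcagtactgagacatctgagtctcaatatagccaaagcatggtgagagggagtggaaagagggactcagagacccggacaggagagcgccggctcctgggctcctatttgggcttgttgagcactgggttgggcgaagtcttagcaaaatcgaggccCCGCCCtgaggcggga
Vcan: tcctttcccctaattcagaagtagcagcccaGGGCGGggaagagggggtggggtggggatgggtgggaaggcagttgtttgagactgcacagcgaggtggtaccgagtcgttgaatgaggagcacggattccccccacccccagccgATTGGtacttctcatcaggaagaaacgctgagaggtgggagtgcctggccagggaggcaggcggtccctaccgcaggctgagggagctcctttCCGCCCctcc
Sparc: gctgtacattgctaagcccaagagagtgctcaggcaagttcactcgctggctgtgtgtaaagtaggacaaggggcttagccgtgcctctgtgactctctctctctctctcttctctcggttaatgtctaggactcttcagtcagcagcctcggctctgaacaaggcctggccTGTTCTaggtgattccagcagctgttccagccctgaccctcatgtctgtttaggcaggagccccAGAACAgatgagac
Spp1: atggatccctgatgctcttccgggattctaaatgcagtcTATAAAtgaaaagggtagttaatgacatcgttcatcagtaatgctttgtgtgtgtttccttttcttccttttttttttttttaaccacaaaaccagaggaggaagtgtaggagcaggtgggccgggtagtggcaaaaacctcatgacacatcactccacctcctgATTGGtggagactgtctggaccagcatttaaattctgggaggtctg
The motifs searched on both strands were AGAACA (a steroid receptor half-site), ACGTG and GCGTG (hypoxia response cores), TGANTCA (AP-1), GGGCGG (Sp1), CCAAT and TATAAA. None contains another of the list. The Sparc window held AGAACA at bases 14 to 9 upstream on the gene strand and at bases 78 to 73 on the opposite strand, and 16.1% of 32851 promoters hold this motif. The Vcan window held 2 matches to GGGCGG (32.7% of promoters) and 1 to CCAAT (33.8%). The Spp1 window held CCAAT at bases 46 to 42 on the opposite strand and TATAAA (12.4%) at bases 211 to 206, and the Fbln2 window held GGGCGG at bases 16 to 11 on the opposite strand. The other motifs, ACGTG (16.6% of promoters), GCGTG (28.2%) and TGANTCA (6.75%), were not in these letters. These are matches of letters in a window and nothing more.

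Levels are CPM, read counts scaled to a common library size with TMM, edgeR's trimmed-mean normalisation, and a comparison between genes is made only after division by exon length. Per kilobase over all 16 tumours, Spp1 had the highest mean level at 1927 CPM per kb, followed by Fn1 at 741, Sparc at 367 and Vcan at 80.7 CPM per kb. Bgn (36.4 CPM per kb), Thbs1 (22.7), Fbln2 (22.6) and Fbn1 (13.8) were in the middle, and Thbs2 (7.78) and Tnc (3.75) were lowest. Spp1 and Fn1 stood at percentiles 99.98 and 99.89 of tested genes per kb, and Tnc at 50.8. Together the 10 genes took 1.76% ± 0.251 of gene counts in Vehicle tumours and 1.63% ± 0.193 in ADF+ENZ tumours (SD, n = 4). The share was 1.44% ± 0.200 under fasting alone and 1.19% ± 0.0991 under the drug alone. Fn1 alone took 1.10% of gene counts in Vehicle and 0.548% in ENZ. In the share of the 10 genes together, the ENZ libraries did not overlap those of Vehicle or ADF+ENZ. ADF lay just under Vehicle in it, with a highest library of 1.586% and a lowest Vehicle library of 1.590%. Each of these differences had p = 0.0286 in an exact permutation test, the smallest that 70 assignments allow (adjusted p = 0.0612 over 15 library tests).

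**Figure D1:**
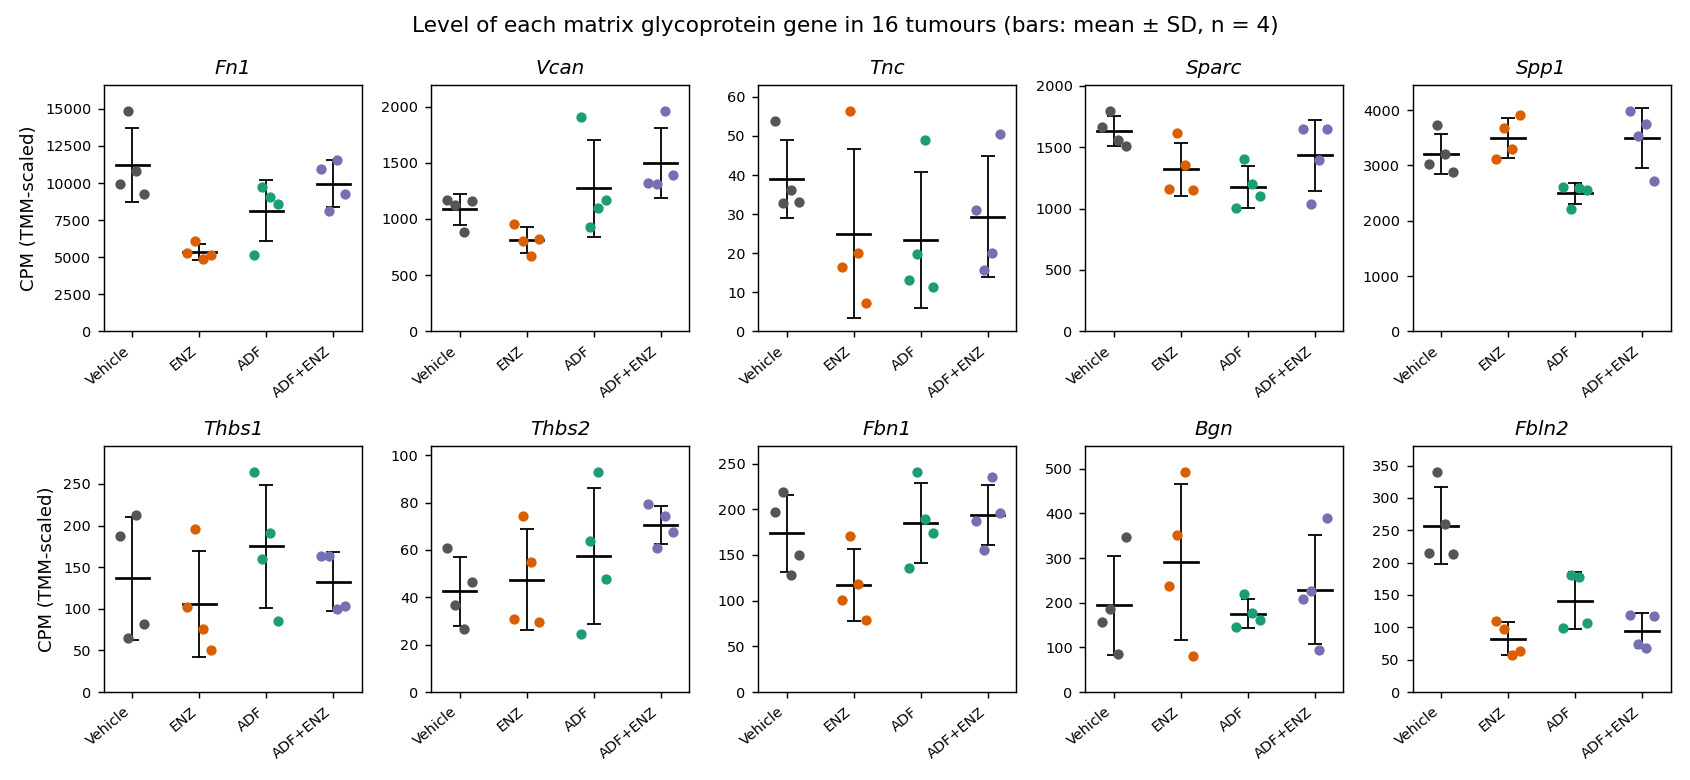
Level of each gene in CPM (TMM-scaled, linear axis from 0) in the 16 tumours, by group; points are tumours and bars are the mean ± SD of 4. The 4 ENZ points of Fn1 lie between 4880.2 and 6123 CPM, below all Vehicle and ADF+ENZ points, and all ENZ and ADF+ENZ points of Fbln2 lie below all Vehicle points.

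Gene counts per library ran from 10072489 to 25505655, and member counts from 159 (Tnc) to 259562 (Fn1), so counting error is small beside the spread of these genes. Overlapping antisense models had few counts, the most being 132 for Apol7d over Fn1, and 2558 for Gm4117 in an intron of Vcan. The ADF libraries stood apart: between 30.3% and 36.7% of their reads fell outside annotated features, against 21.2% to 27.9% in the other 12 libraries. Reads aligned to several places took 4.10% to 5.03% in ADF and 6.51% to 7.96% in the other 12. For this share the exact permutation p was 0.0286 against Vehicle and against ADF+ENZ (adjusted p = 0.0612). Ambiguous reads took 2.71% to 3.02% in ADF and 3.44% to 5.26% in the other 12. The part of these last shares in the member results was not tested. As a check of the label, the epithelial genes Krt8 and Krt18 averaged 501 and 121 CPM, whereas Epcam (0.420 CPM) and Cdh1 (2.39 CPM) were near 0. The 12 fibroblast markers ranged from Dcn at 3624 and Col3a1 at 3472 CPM, the highest, to Dpt at 23.5, Thy1 at 12.2, Lum at 10.9, Pi16 at 9.80, Mfap5 at 3.47 and Fap at 2.82 CPM, so their sum is set by a few genes. In bulk RNA fewer cells of a type and less RNA per cell cannot be told apart.

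ENZ against Vehicle asks what enzalutamide does in freely fed mice. Fn1 and Fbln2 fell, and the other 8 members did not pass. Fibronectin transcript was at a level 2.09-fold lower under the drug, and Fbln2, which encodes fibulin-2, a protein that binds fibronectin, fibrillin and versican in the matrix, was 3.14-fold lower. Beside these 2 of 10, both lower, 5.43% of all tested genes were called in either direction, 1.81% higher and 3.62% lower.

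Fn1 (ENSMUSG00000026193) read 9912, 14837, 10797 and 9283 CPM in the Vehicle tumours and 5304, 6123, 4880.2 and 5120.5 CPM in the ENZ tumours. All 4 ENZ tumours were below the lowest Vehicle tumour, and they were close to each other. The log2 difference was -1.06 (SE 0.184, 95% interval -1.45 to -0.68, adjusted p = 0.00207 in edgeR's quasi-likelihood test). Fbln2 (ENSMUSG00000064080) read 215, 339.9, 259.6 and 213 CPM in Vehicle and 110.0, 97.0, 57.3 and 63.9 CPM in ENZ. Here too the groups did not overlap, with the highest ENZ tumour far below the lowest Vehicle tumour. The log2 difference was -1.65 (SE 0.285, interval -2.26 to -1.04, adjusted p = 0.00481 in edgeR). Both calls were kept in all 17 alternatives, with adjusted p from 4.38e-07 to 0.0128 for Fn1 and from 1.42e-06 to 0.0206 for Fbln2.

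Among members that did not pass, Vcan, the chondroitin sulphate proteoglycan that binds hyaluronan, had a log2 difference of -0.42 (adjusted p = 0.235 in edgeR). For Fbn1, the microfibril protein fibrillin-1, it was -0.57 (adjusted p = 0.198), and for Sparc, the collagen-binding matricellular protein, -0.30 (adjusted p = 0.247). The 95% intervals of these 3 lay below 0 before adjustment. Spp1 was at 3501 ± 362 CPM in ENZ and 3208 ± 368 in Vehicle (SD, n = 4), with an interval of -0.13 to 0.38 on the log2 scale. The median difference of the 10 members was -0.39, against 0.01 over all genes tested. The groups did not overlap for these 2 members, both lower, beside 5.44% of all genes higher and 6.54% lower without overlap.

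Genes that build, cut or bind this matrix were counted as lists. These lists too were chosen with earlier results of these data known, so their counts are no test of an excess. Of 35 matrix assembly and turnover enzymes 6 fell and 0 rose: P4ha2, a collagen prolyl hydroxylase subunit, was at 57.1 ± 3.58 CPM against 108.7 ± 17.8 (log2 -0.93, adjusted p = 0.000173 in edgeR). Pcolce, which speeds procollagen processing (-0.56), Loxl4, a lysyl oxidase (-0.82), and Tgm2, the transglutaminase that crosslinks fibronectin (-0.43), were the next named, and the Tgm2 call was lost in 3 of 8 fits with 1 library left out. Of 22 matrix receptors 3 fell: Cd47, a thrombospondin receptor (280.2 ± 39.6 to 190.1 ± 14.4 CPM, log2 -0.56), Cd44, which binds hyaluronan and osteopontin (-0.43), and Sdc4, a syndecan that acts with integrins on fibronectin (-0.63). Cd47 kept its call in all 8 such fits, while Cd44 lost it in 4 and Sdc4 in 6. Of 32 other matrix glycoproteins 4 fell and 2 rose, led by Ccn4 (37.9 ± 8.11 to 102.6 ± 31.7 CPM, log2 1.44) and Ecm1 (-0.62). Ltbp1 (-0.52) and Lgals3bp (-0.41) followed, with the call lost in 3 and 4 of 8 fits. Of 21 tested family relatives Tnxb (tenascin-X, a relative of Tnc, log2 -1.48) and Thbs3 (-0.57, lost in 6 of 8 fits) fell and Dmp1 rose (2.28, from 0.491 to 2.50 CPM). Of 21 tested chondroitin and dermatan sulphate chain enzymes 1 rose, the synthase Chsy1 (0.43, lost in 5 of 8 fits). Most of this list of 22 builds sugar chains like those of versican and biglycan. It also holds the hyaluronan synthases Has1, Has2 and Has3, which do not build these chains.

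The summed level of 12 fibroblast markers moved with Fn1: it ran from 11255 to 13100 CPM in Vehicle and from 9633 to 10708 in ENZ, without overlap (exact permutation p = 0.0286, adjusted p = 0.524 over 55 marker tests). None of the 12 had 0 counts, 0 passed in edgeR (2 had an unadjusted p under 0.05, and DESeq2 and limma-voom called 1 each), and the part of this shift in the Fn1 result was not tested.

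ADF against Vehicle asks what fasting does without the drug, and it shares the 4 Vehicle libraries with the comparison above. Sparc fell, to a level 1.39-fold lower, as the 1 call among 10 members. The background was 9.01% of genes called in either direction, 4.05% higher and 4.96% lower, so 1 in 10 is near it. Fbln2 and Spp1 were also without overlap between the groups, lower in ADF, but did not pass.

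Sparc (ENSMUSG00000018593) read 1665, 1791, 1559 and 1507 CPM in Vehicle and 1001, 1399.5, 1196 and 1101 CPM in ADF. Every ADF tumour was below every Vehicle tumour, with the second ADF tumour nearest. The log2 difference was -0.47 (SE 0.145, interval -0.78 to -0.17, adjusted p = 0.0465 in edgeR). This call is close to the threshold: it was lost when ADF replicate 1, 3 or 4 or any 1 of the 4 Vehicle replicates was left out (log2 -0.40 to -0.51, adjusted p = 0.0532 to 0.129), with protein-coding TMM (adjusted p = 0.0598), with the stricter filter (0.0501) and with either covariate.

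Spp1 (ENSMUSG00000029304) read 3024, 3724, 3202 and 2883 CPM in Vehicle and 2605, 2220.3, 2598 and 2564 in ADF. The ADF tumours were the lowest of the 2 groups, in a narrow band. Its log2 difference was -0.36 (adjusted p = 0.0677 in edgeR, 0.0226 in DESeq2 and 0.0203 in edgeR without a filter). Fbln2 read 98.9, 181, 178 and 107 CPM in ADF, all below the lowest Vehicle tumour at 213 CPM, with a log2 difference of -0.86 (adjusted p = 0.0673 in edgeR, 0.0266 in DESeq2). Members without overlap were thus 3, all lower, beside 7.95% of all genes higher and 8.55% lower without overlap. Fn1 read 5128, 9727, 9041 and 8604 CPM in ADF and overlapped Vehicle (log2 -0.46, interval -0.85 to -0.08, adjusted p = 0.112 in edgeR). ADF replicate 1 was low in Fn1 and high in Vcan, at 1904 CPM beside 928 to 1166 CPM in the other 3.

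The matrix enzymes had the most calls of these lists, which were chosen with earlier results known: 10 of 35 fell and 0 rose. The named ones were P4ha2 (log2 -1.14, from 108.7 ± 17.8 to 49.2 ± 8.33 CPM), P4ha1 (-1.26), Tgm2 (-0.58) and Plod2, a lysyl hydroxylase (-0.94), each kept in all 8 fits with 1 library left out. Of 22 receptors 2 rose and 3 fell; Stab1, a scavenger receptor that takes up SPARC, rose (202.8 ± 26.4 to 309.2 ± 30.5 CPM, log2 0.61), and Itgb1, the shared beta subunit of the main fibronectin integrins, fell (-0.33, lost in 2 of 8 fits). Sdc4 (-0.58) and Plaur (-0.44) fell with calls lost in 6 and 5 of 8 fits. Of the other matrix glycoproteins Ccn3 (-0.74) and Ecm1 (-0.49, lost in 5 of 8 fits) fell and Ccn4 rose (0.86, lost in 6). The relatives held 1 lower call, Dcn (decorin, -0.43, lost in 7), and the chain enzymes 1 higher call, Xylt2 (0.30, lost in 7).

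Beside these counts, reads in no annotated feature took 32.9% ± 2.73 of reads in ADF and 25.9% ± 2.25 in Vehicle (SD, n = 4; exact permutation p = 0.0286). With that share as a covariate the log2 difference of Sparc was -0.28 (adjusted p = 0.755 in edgeR) and 6 genes of all passed in place of 1707. The share follows the ADF group, so in this comparison the covariate and the group cannot be told apart. In ADF+ENZ, where mice were also fasted, it was 24.0% ± 2.05 (SD, n = 4), so the share did not follow fasting across the groups.

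ADF+ENZ against Vehicle compares the joint treatment with the same 4 Vehicle libraries. Fbln2 fell to a level 2.70-fold lower, the 1 call among the members, beside a background of 12.5% of genes in either direction, 5.97% higher and 6.53% lower. Fn1, at 9962 ± 1592 CPM against 11207 ± 2498 in Vehicle (SD, n = 4), did not pass.

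Fbln2 read 119, 74.9, 68.6 and 118 CPM in ADF+ENZ, and the highest was under the lowest Vehicle tumour at 213 CPM. The log2 difference was -1.43 (SE 0.283, interval -2.04 to -0.82, adjusted p = 0.00625 in edgeR), and the call was kept in all 17 alternatives. Vcan (ENSMUSG00000021614) read 1173, 1127, 884 and 1156 CPM in Vehicle and 1322, 1312, 1958 and 1395 in ADF+ENZ. All ADF+ENZ tumours were above all Vehicle tumours, yet the log2 difference of 0.46 did not pass (adjusted p = 0.122 in edgeR). Thbs2 (ENSMUSG00000023885), a thrombospondin that binds CD47 and CD36, read 60.7, 36.6, 26.6 and 46.4 CPM in Vehicle and 79.2, 61.0, 74.4 and 67.5 in ADF+ENZ. These groups met almost end to end without overlap (log2 0.73, interval -0.12 to 1.57, adjusted p = 0.248 in edgeR). The members without overlap were 2 higher and 1 lower, beside 8.59% and 8.67% of all genes in those directions.

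The chain enzymes of chondroitin and dermatan sulphate rose in 7 of 21 and fell in 0. The sulphotransferase Chst11 went from 75.2 ± 4.41 to 112.4 ± 23.8 CPM (log2 0.58, adjusted p = 0.00350 in edgeR), with Chpf2 (0.54), Chsy1 (0.51) and Xylt2 (0.39) next, all kept in the 8 fits with 1 library left out. The assembly enzymes fell in 6 of 35 and rose in 1, with P4ha2 (-1.03), Tgm2 (-0.79), Loxl4 (-1.25) and P4ha1 (-1.07) named and kept. Receptors rose in 2 of 22 and fell in 2: Sdc2 (0.52) and Itga5, the alpha subunit of the classical fibronectin integrin (0.54, lost in 1 of 8 fits), were higher, and Cd47 (-0.41) and Itgb5 (-0.48, lost in 5) were lower. Among 21 relatives 5 fell and 1 rose, with Tnxb (-1.42) and Efemp2 (-0.78) kept and Sparcl1 (-1.11) and Aspn (-0.86) each lost in 5 fits. Of the 32 other glycoproteins Ccn4 rose (1.23) and 2 fell, Vwa1 (-0.39, lost in 3) the one named.

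ADF+ENZ against ENZ asks what fasting adds in mice on the drug, and here 2 members rose: Fn1, to a level 1.86-fold higher, and Vcan, 1.84-fold higher. The 4 ENZ libraries are the same as in ENZ against Vehicle and also enter the interaction, so the Fn1 calls are not independent. The background was 1.09% of genes called in either direction, 0.813% higher and 0.274% lower. Of the 10 estimates 8 were above 0, with a median of 0.29 against -0.01 over all genes.

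Fn1 read 10973, 8088, 11555 and 9232 CPM in ADF+ENZ, all above the highest ENZ tumour at 6123 CPM. The log2 difference was 0.89 (SE 0.184, interval 0.51 to 1.28, adjusted p = 0.0250 in edgeR). Vcan read 955, 808, 673 and 819 CPM in ENZ, all under the lowest ADF+ENZ tumour at 1312 CPM. Its log2 difference was 0.88 (SE 0.192, interval 0.47 to 1.28, adjusted p = 0.0374 in edgeR). Both were without overlap and higher, beside 4.96% of all genes higher and 3.71% lower. Fbn1 (ENSMUSG00000027204) read 100.5, 171, 118 and 78.8 CPM in ENZ and 187, 156, 235 and 196 in ADF+ENZ. The second ENZ tumour overlapped, and the log2 difference of 0.73 did not pass in edgeR (adjusted p = 0.160) but did in DESeq2 (0.0252).

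The Fn1 call was lost without ADF+ENZ replicate 1 or 3 or ENZ replicate 1, 3 or 4 (log2 0.80 to 0.89, adjusted p = 0.0594 to 0.124 in edgeR), and the Vcan call without any of these or ENZ replicate 2 (0.71 to 0.97, adjusted p = 0.0520 to 0.164). Both were also lost without the filter (adjusted p = 0.0739 and 0.109) and with the covariate of reads in no feature (0.0923 and 0.121).

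The fibroblast sum again moved with Fn1, from 9633 to 10708 CPM in ENZ and from 11817 to 13702 in ADF+ENZ (exact permutation p = 0.0286, adjusted p = 0.524 over 55 marker tests). Of its 12 markers 1 rose, Pdgfra (421.8 ± 89.7 to 695 ± 82.9 CPM, log2 0.72, lost in 5 of 8 fits), and its part in the result was not tested. Of the lists, 3 of 21 chain enzymes rose, Chst11 (0.77), Ust (0.72, lost in 1 of 8 fits) and Xylt1 (0.81, lost in 7), the last of which starts the chain. Receptors that rose were 2 of 22, Sdc2 (229.5 ± 26.9 to 371.5 ± 34.4 CPM, 0.69) and Lrp1, an endocytic receptor for thrombospondins (0.58, lost in 6). Timp2 was the 1 of 35 enzymes and inhibitors to rise (0.55, lost in 6), and Efemp2 the 1 of 21 relatives to fall (-0.63, lost in 5). Among the 32 other glycoproteins 0 passed in edgeR, 6 had an unadjusted p under 0.05, and DESeq2 called 4 and limma-voom 1.

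ADF+ENZ against ADF asks what the drug does in fasted mice. Spp1, the integrin and CD44 ligand osteopontin, rose 1.40-fold as the 1 call among the members, beside a background of 16.3% of genes in either direction, 8.72% higher and 7.54% lower. Fn1, which was lower with the drug in freely fed mice, had an estimate of 0.29 here (interval -0.09 to 0.68, adjusted p = 0.270 in edgeR).

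Spp1 read 2605, 2220.3, 2598 and 2564 CPM in ADF and 3979, 3539, 3742 and 2723 in ADF+ENZ. The groups did not overlap, but the fourth ADF+ENZ tumour was close to ADF. The log2 difference was 0.49 (SE 0.123, interval 0.23 to 0.74, adjusted p = 0.0146 in edgeR), and among all genes 10.6% were higher and 9.93% lower without overlap. Without ADF+ENZ replicate 3 the call was lost by little (0.45, adjusted p = 0.0507), and with the covariate of reads in no feature the estimate was 0.27 and did not pass, in a setting where 0 genes of all passed. The 10 macrophage markers, from cells known to make osteopontin, summed to 2201 to 2585 CPM in ADF and 2046 to 2846 in ADF+ENZ, overlapping, with 0 called in edgeR (2 at an unadjusted p under 0.05, 1 in DESeq2 and 2 in limma-voom). Gm42793, an overlapping gene model on the same strand as Spp1 with 1684 counts in all libraries, could share reads with it.

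The chain enzymes rose in 8 of 21 and fell in 0, with Chst11 (0.88), Ust (0.74), Chsy1 (0.48) and Chpf2 (0.47) named. Receptors rose in 5 of 22 and fell in 1: Sdc2 (0.68), Itga5 (0.66) and Itgb1 (0.34) were higher and Stab1 (-0.58) was lower. These 8 calls were kept in all fits with 1 library left out. Assembly enzymes rose in 4 of 35 and fell in 2, with Plod2 (51.8 ± 13.4 to 94.2 ± 19.5 CPM, log2 0.86) and Adamts4, a versican-cutting protease (0.46, lost in 2 of 8 fits), higher and P4ha3 (-1.07, lost in 3) and Loxl4 (-0.58, lost in 6) lower. Relatives fell in 3 of 21: Thbs3 (-0.65), Tnxb (-0.86) and Aspn (-0.77, lost in 6). Of the other glycoproteins 3 rose, Ccn3 (0.69), Ltbp4 (0.60, lost in 8 of 8) and Ecm1 (0.38, lost in 5), and 1 fell.

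The interaction asks whether fasting acts differently with and without the drug: it is the ADF+ENZ minus ENZ difference less the ADF minus Vehicle difference. Fn1 passed, as 1 of 10 members beside a background of 3.1% of genes in either direction, 2.18% higher and 0.918% lower. Under fasting the log2 difference of Fn1 was -0.46 in tumours without the drug, which did not pass, and 0.89 in tumours with it. The interaction of Fn1 was 1.36 on the log2 scale (SE 0.259, interval 0.82 to 1.90, adjusted p = 0.0126 in edgeR), and the call was kept in all 16 fits with 1 library left out (1.19 to 1.46). With the covariate of reads in no feature it was 1.10 (adjusted p = 0.920), and 0 genes of all passed in place of 587.

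The other members had interaction estimates of 1.08 for Fbln2 (adjusted p = 0.140 in edgeR), 0.65 for Vcan (0.182) and 0.59 for Sparc (0.107). Sparc passed in DESeq2 (0.0465) and without ADF+ENZ replicate 2 (0.0313 in edgeR), and Vcan without ADF replicate 1 (0.0239). The median of the 10 was 0.61, against -0.02 over all genes tested, and 4 members had an unadjusted p under 0.05. Of the lists, enzymes were called higher in 5 of 35 and lower in 1, chain enzymes higher in 4 of 21, receptors higher in 2 of 22 and lower in 1, and other glycoproteins higher in 3 of 32. Of 21 relatives 0 passed in edgeR, with 5 at an unadjusted p under 0.05, 1 in DESeq2 and 0 in limma-voom.

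**Figure D2:**
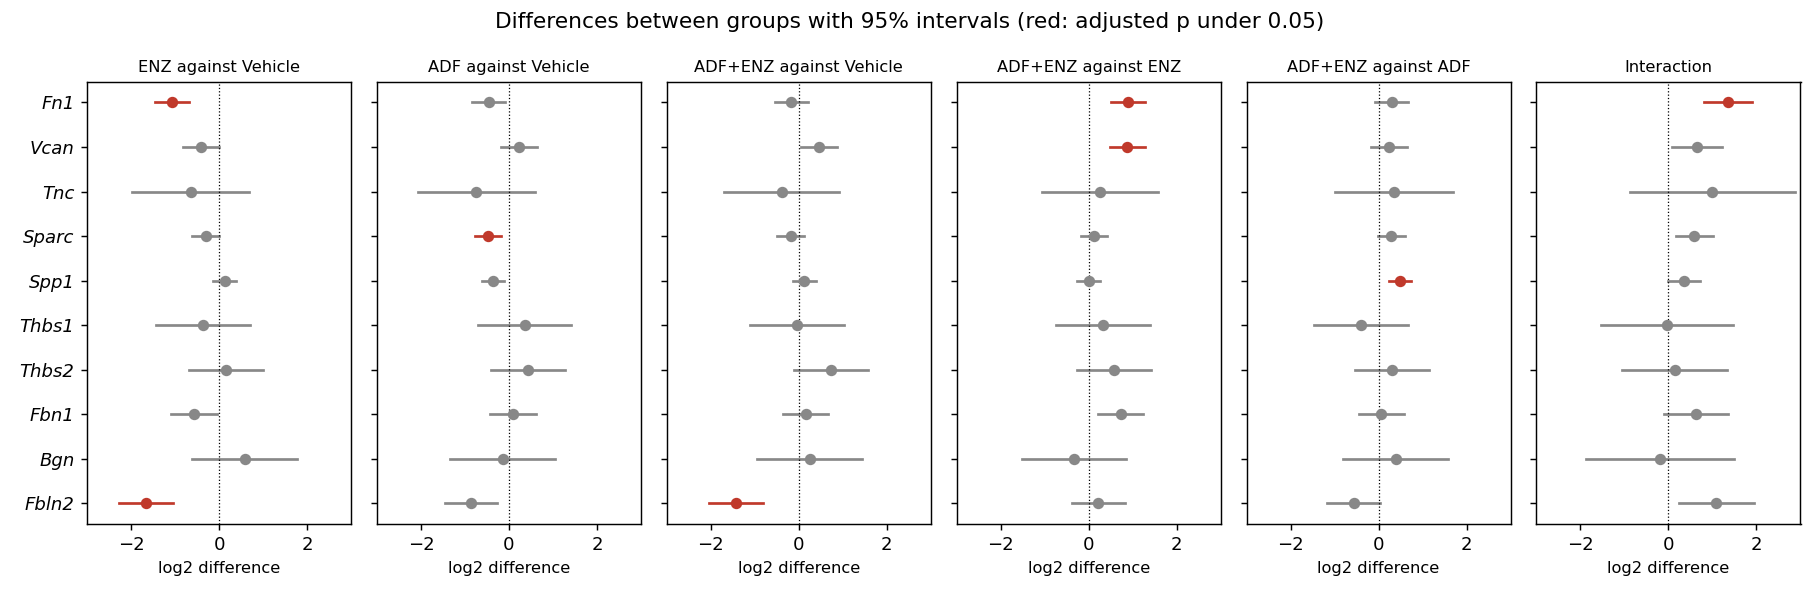
Log2 difference of each gene in the 5 comparisons and the interaction, with 95% intervals before adjustment; red marks an adjusted p under 0.05 over all 18946 genes tested. The 8 red points are Fn1 in 3 panels, Fbln2 in 2 and Vcan, Sparc and Spp1 in 1 each.

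Tnc, Thbs1, Thbs2 and Bgn passed in none of the 6 comparisons, and their tumours of 1 group were far apart. The SD of log2 CPM within groups was 0.86 for Tnc, 0.83 for Bgn, 0.71 for Thbs1 and 0.58 for Thbs2, against a median of 0.15 over the 9824 genes with a mean of at least 10 CPM. These lie at percentiles 99.6, 99.5, 99.3 and 98.7 of those genes, whereas Spp1 (0.17) lies at 62.4. Of the 10 members 9 were above percentile 80 in this measure.

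Tnc (ENSMUSG00000028364), the tenascin of injured and tumour stroma, read 53.9, 32.8, 36.1 and 33.1 CPM in Vehicle. In ENZ it read 16.6, 56.3, 19.9 and 7.31 CPM, a 7.70-fold range within 1 group. In ADF it read 13.2, 19.8, 49.0 and 11.4 CPM, and in ADF+ENZ 31.0, 15.7, 20.2 and 50.4. In each group 1 tumour was at or above 49.0 CPM. The interval of ENZ against Vehicle was -1.97 to 0.67 on the log2 scale, wide enough to hold a large fall as well as a moderate rise.

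Thbs1 (ENSMUSG00000040152), which binds CD47 and CD36 and can activate latent TGF-beta, read 187, 64.8, 213 and 81.2 CPM in Vehicle and 102, 196, 75.4 and 51.0 in ENZ. In ADF it read 264, 159, 191 and 85.2 CPM and in ADF+ENZ 164, 164, 100.03 and 103. All groups overlapped. Bgn (ENSMUSG00000031375), the small proteoglycan biglycan, read 157, 186, 85.2 and 348 CPM in Vehicle and 238, 351, 492 and 79.8 in ENZ. In ADF it was tighter, at 145, 219.7, 176 and 161 CPM, and in ADF+ENZ it read 207, 226, 93.5 and 389. Thbs2 ran from 24.5 to 92.9 CPM in ADF and from 29.6 to 74.4 CPM in ENZ, and Fbn1 from 136 to 241 CPM in ADF.

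Across tumours the members fell partly into a set that went together. Over the 45 pairs the median Pearson r of log2 CPM was 0.22 over 16 tumours and 0.17 after group means were subtracted, and 29 pairs were above 0 in each version, though not the same 29. Within groups the highest were Sparc with Fbn1 (0.76), Thbs2 with Fbn1 (0.73) and Tnc with Thbs2 (0.72), and the lowest was Spp1 with Bgn (-0.55). Fn1 went with Fbn1 at 0.76 over all tumours and 0.68 within groups, and Vcan went with Fn1 at 0.34 over all tumours and -0.39 within groups. These points share libraries and scaling, and the values are a description of 16 tumours.

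**Figure D3:**
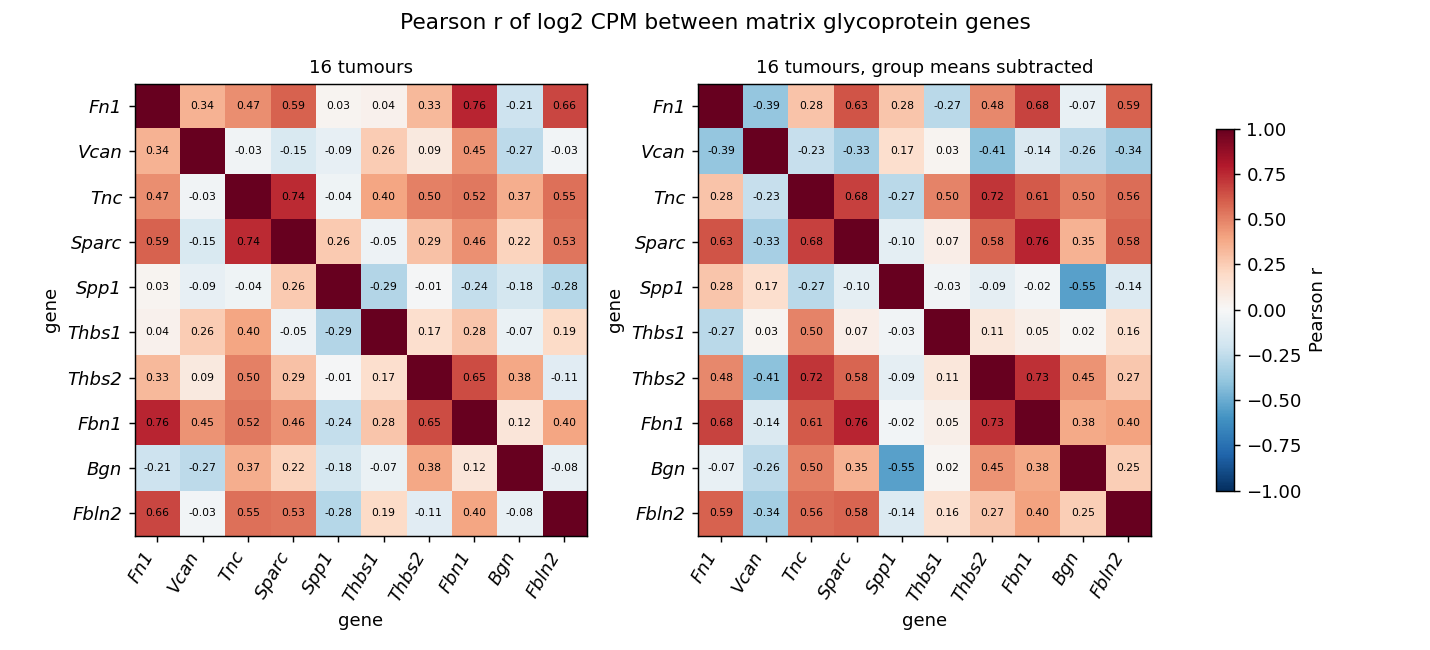
Pearson r of log2 CPM between the 10 genes over 16 tumours (left) and after subtracting each group's mean (right), from blue at -1 to red at 1. Fn1, Tnc, Sparc, Thbs2, Fbn1 and Fbln2 form a red block on the right, from 0.27 to 0.76, while Vcan and Spp1 are mostly near or below 0 there.

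Against the summed fibroblast markers, r over 16 tumours was 0.81 for Fn1, 0.77 for Fbn1, 0.69 for Thbs2 and 0.45 for Sparc and Tnc. It was 0.32 for Vcan and Fbln2, -0.02 for Spp1 and -0.08 for Bgn. After group means were subtracted it was 0.64 for Fn1, 0.62 for Fbn1, 0.81 for Thbs2, 0.49 for Sparc, 0.39 for Tnc and 0.25 for Fbln2, and it changed sign for Vcan, to -0.49. Most of the fibroblast sum comes from matrix genes, with means of 3624 CPM for Dcn, 3472 for Col3a1, 1990 for Col1a2 and 1554 for Col1a1. Dcn is also among the relatives, so these r values do not measure fibroblast number. Against the summed macrophage markers r was 0.32 over all tumours and 0.55 within groups for Spp1, and -0.52 and -0.54 for Thbs1. Some members had higher r with other sums. For Thbs1 it was 0.59 over all tumours and 0.72 within groups with endothelial markers, and 0.60 and 0.71 with platelet markers. For Bgn it was 0.60 and 0.69 with T and NK cell markers, whose sums are low. Within groups, Sparc and Tnc each had 0.65 with pericyte and smooth muscle markers, above their fibroblast values.

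The genes closest in pattern to each member, by Pearson r over 16 tumours among 16051 genes, were these. They were picked as the highest of many values from few tumours, so high r is partly owed to that choice. After group means were subtracted, r of the same pairs ran from 0.56 (Fn1 with Cav1) to 0.91 (Bgn with E330013P04Rik). Fbln2 was closest to Cd47 (0.95), Glis3 (0.92) and Picalm (0.90). Fn1 was closest to Slc41a2 (0.88), Cav1 (0.88) and Creb3l2 (0.88), and Spp1 to Bad (0.93) and Txndc12 (0.92). Thbs1 was closest to the smooth muscle genes Acta2 (0.86) and Myh11 (0.82), with Fam219a (0.84) between them, and Thbs2 to Map1a (0.82), Postn (0.81), which encodes the matrix protein periostin, and Ccdc80 (0.81). Sparc was closest to Anxa6 (0.89), Saa3 (0.83) and Ctsb (0.82), Vcan to Zswim8 (0.90), Cyth3 (0.88) and Tfdp2 (0.87), and Fbn1 to Cic (0.82), Glg1 (0.81) and Adam12 (0.80). Tnc was closest to Fermt2 (0.79), Atp6v0d2 (0.79) and Cxcr4 (0.77), and Bgn to the matrix metalloproteinase gene Mmp3 (0.77), E330013P04Rik (0.77) and Lilra5 (0.76).

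**Figure D4:**
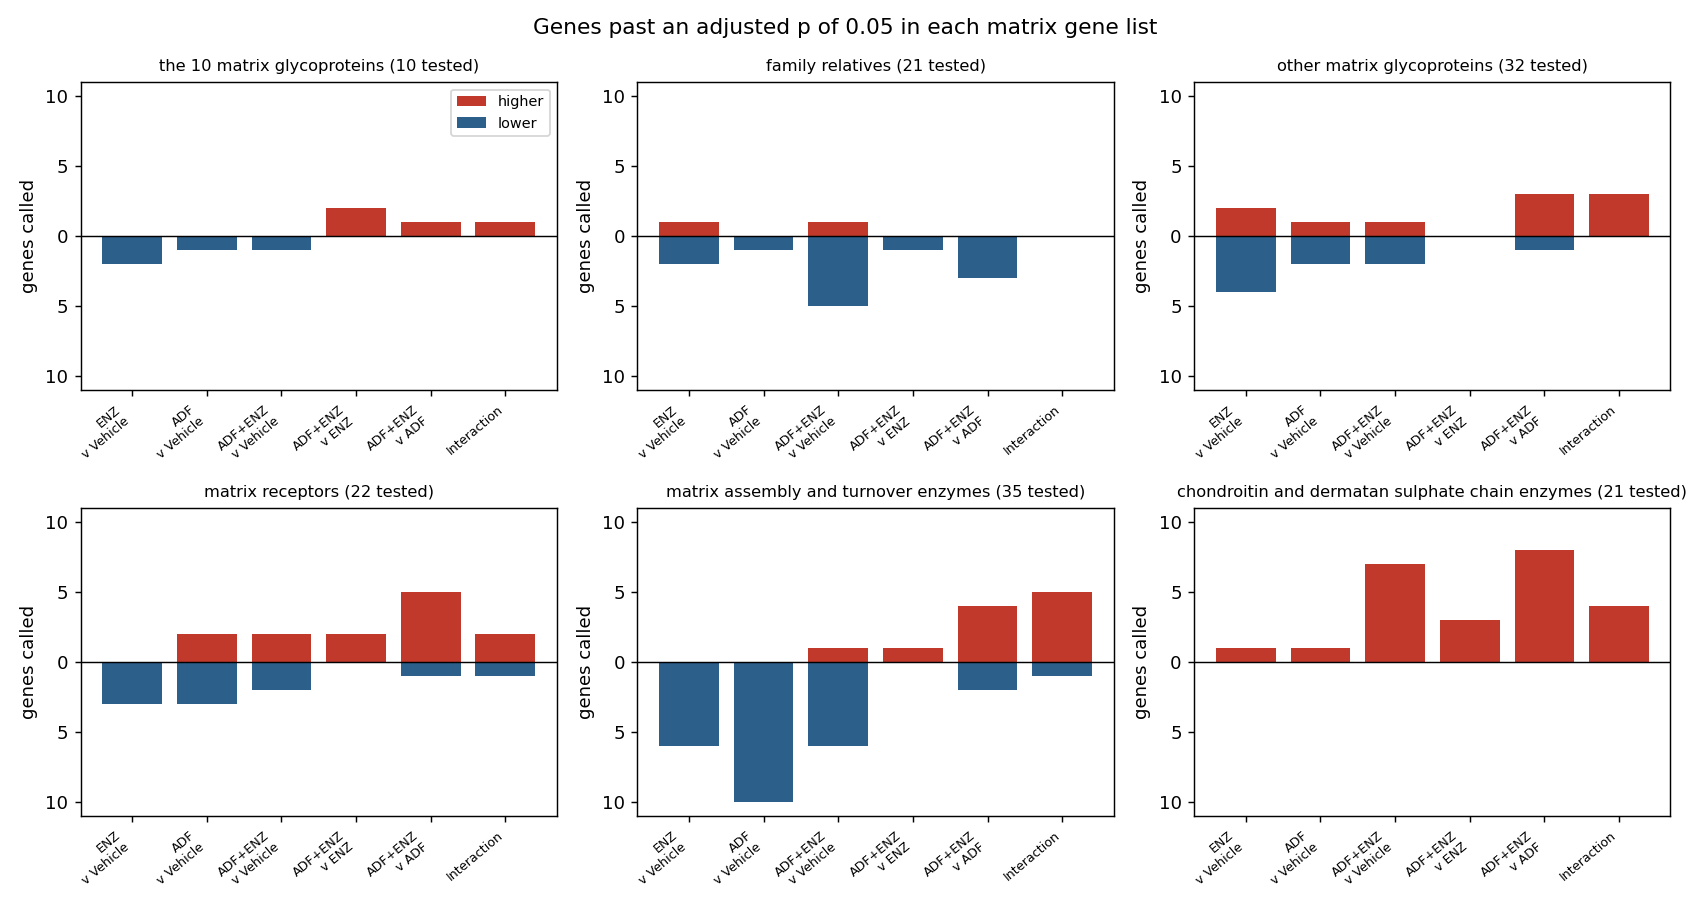
Number of genes called higher (red, up) and lower (blue, down) at an adjusted p under 0.05 in each list and comparison, with the number tested in each title. Assembly enzymes are mostly lower in the 3 comparisons with Vehicle, up to 10 of 35 in ADF, and all chain enzyme calls are higher, up to 8 of 21 in ADF+ENZ against ADF.

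The median log2 difference of the 35 assembly and turnover enzymes against Vehicle was -0.22 under the drug, -0.25 under fasting and -0.14 under both, where all tested genes had medians of 0.01, 0.01 and 0.00. That of the 21 chain enzymes was 0.39 in ADF+ENZ against Vehicle and 0.21 against ADF, beside 0.00 and -0.02 over all genes. The medians of the relatives ran from -0.25 to 0.06 over the 6 comparisons, those of the other glycoproteins from -0.17 to 0.10 and those of the receptors from -0.21 to 0.24. A few called genes fell outside the naming rule and are given after their values were seen. In ENZ these were Ccn2 (-1.35), Matn4 (1.09), P4ha1 (-0.75) and the lysyl oxidase gene Lox (-0.88). In ADF the enzymes Lox (-0.92), Plod3 (-0.43), Adamts1 (-0.81), Serpinh1 (-0.55), Loxl4 (-0.66) and Pcolce (-0.37) and the receptor Lrp1 (0.47) completed the counts. In ADF+ENZ against Vehicle the relatives Tnn (0.97) and Fbln7 (-1.50) passed, as did Furin (0.30), and Matn3, at a mean of 0.520 CPM, was the other lower glycoprotein there and against ADF. Against ADF, Tlr4 (0.32), Sdc3 (0.78), Plat (0.87) and Timp2 (0.41) were also higher, and in the interaction P4ha1 (0.94) and P4ha3 (-1.77) passed.

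Other cell types were followed by their markers beside these results. Fibroblast markers called were Dcn (lower in ADF than Vehicle) and Pdgfra (higher in ADF+ENZ than Vehicle, log2 0.61, and than ENZ). Endothelial calls were Tek (0.85) and Emcn (0.57), higher in ENZ, 2 of 10 markers. Macrophage calls were Cd68, 1 of 10 markers, lower in ENZ (-0.48) and in ADF (-0.44). Adgre1 (-0.63) and Fcgr1 (-0.43), 2 of 10, were lower in ADF+ENZ than Vehicle. Endothelial sums overlapped, at 380 to 699 CPM in ENZ and 359 to 609 in Vehicle. Macrophage sums overlapped too, at 2024 to 2836 CPM in ENZ and 2160 to 3117 in Vehicle. Summed macrophage markers ran from 2024 to 3117 CPM, pericyte and smooth muscle from 568 to 828, endothelial from 315 to 699 and prostate epithelial from 496 to 1191. Krt19, at 0 to 6.18 CPM, was the 1 of 7 tested epithelial markers called, lower in each comparison with Vehicle and in ADF+ENZ against ADF. Platelet markers summed to 14.2 to 21.7 CPM in ADF and 6.34 to 14.1 in ADF+ENZ, where Itga2b was lower than in ADF (-0.82, lost in 3 of 8 fits). Sums were at most 39.6 CPM for neutrophil, 31.0 for skeletal muscle, 22.4 for adipocyte, 21.0 for T and NK cell and 6.24 for skin keratinocyte markers, where Krt1 and Flg had 0 counts. None of these markers' part in the member results was tested.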

How the data were processed

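RNA-seq of 16 tumours was deposited as raw counts per gene; per the submitters' processing notes the tools were Trim Galore, HISAT2, featureCounts and DESeq2 and the builds mm39 and GRCh38, with no role or version. The deposited counts were used as given; 5 extra rows of htseq-count style names were kept out of tests and used as library measures. The sources used here do not say whether strand was used. Symbols (52081 of 55414 IDs) and exon lengths came from an annotation of an earlier build, GRCm38. The remaining IDs, with no symbol, took 3.51% of gene counts.

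All 16 libraries were fitted at once in edgeR 4.0.16 (R 4.3.3; robust quasi-likelihood, TMM, filterByExpr with min.count 10 and min.total.count 15). Each contrast was adjusted by Benjamini-Hochberg over 18946 genes, and a gene was called at an adjusted p under 0.05; intervals are 95% and unadjusted. Log2 CPM used a prior count of 2. Library measures were compared by exact two-sided permutation. Replicates of a group differed by more than counting error in all 24 pairs (chi-square per degree of freedom 5.79 to 38.6). The script was tested on simulated data with 200 changed genes.

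The members and lists were chosen with earlier results of these data known. Named were all members and up to 4 genes per list and comparison, called and at a mean of at least 1 CPM, by adjusted p, and 3 genes per member by r, of which 1 is not reported here. Alternatives were DESeq2 1.42.0 and its size factors, limma-voom (limma 3.58.1), no filter, at least 1 CPM in 4 libraries, the percent of reads in no feature or skeletal muscle markers as a covariate, only the 2 groups compared, each library left out in turn, and, chosen after seeing the data, TMM from protein-coding genes.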

Additional observations from a re-analysis of the deposited data

Results flagged for a closer look

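Single tumours stood apart from the other 3 of their group by Dixon's ratio in 9 of 84 groups examined. The cut-off gives about 1 in 20 for independent normal values. Here the values were CPM on a linear scale from the same 16 libraries, so the count is no test of an excess. Among the members, Vcan was low in 1 Vehicle tumour (884 CPM, the others 1127 to 1173) and high in 1 ADF+ENZ tumour (1958 CPM, the others 1312 to 1395). Tnc was high in 1 Vehicle tumour (53.9 CPM, the others 32.8 to 36.1), and Spp1 was low in 1 ADF tumour (2220.3 CPM, the others 2564 to 2605). Among marker sums, the high values were 30.8 CPM for neutrophil markers in ADF, 18.5 for T and NK cell markers in ADF+ENZ, 14.1 for platelet markers in ADF+ENZ, and 31.0 in Vehicle and 9.56 in ADF+ENZ for skeletal muscle markers.

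By the interaction term in edgeR, the effect of fasting was called as different with and without the drug for Fn1 (log2 1.36). The same call was made for the list genes P4ha2 (1.04), Plod2 (1.35), Chst11 (1.07), Ust (0.95), Sdc2 (0.86), Ecm1 (1.003) and Ccn3 (1.20), and these 8 kept the call in all 16 fits with 1 library left out. With the covariate of reads in no feature, however, 0 genes of all passed in place of 587, so these calls were lost too. For Stab1 (-0.81), Timp2 (0.79), Lox (1.26), Sdc4 (0.95), Matn2 (0.999), Cd68 (0.68), Xylt1 (0.97) and Csgalnact2 (0.42) the call was lost in 7 to 14 of those fits.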

How the results depend on the processing

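No paired analysis was possible because the tumour numbers in the labels are all different. Of 60 member results 8 were called; over 1090 alternatives 1052 kept direction and side of the threshold, 29 lost a call, 9 gained one and 0 reversed one, with 44 changes of sign among results not called. Of the 8 calls, 4 were kept in every fit with 1 library left out. The number of members called did not move from 2 in ENZ against Vehicle or from 1 in ADF+ENZ against Vehicle. In ADF against Vehicle (1 called) it was 3 in DESeq2, 2 without a filter, and 0 with the stricter filter, either covariate or protein-coding TMM; without 1 library it ran from 0 to 1. In ADF+ENZ against ENZ (2 called) it was 0 without a filter and with the covariate of reads in no feature, and 0 to 2 without 1 library. In ADF+ENZ against ADF (1 called) it was 0 with that covariate and 0 to 2 without 1 library, and for the interaction (1 called) 2 in DESeq2, 0 with that covariate and 1 to 2 without 1 library. The cause was not tested. With that covariate 4 list genes of ADF+ENZ against ADF changed sign: Aspn to 0.20, Ecm1 to -0.023, P4ha3 to 0.25 and Itga2b to 0.017.

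Genes called over the whole table moved by more than 1.5 times: from 1028 to 403 without 1 library and 1655 in limma-voom (1594 in DESeq2) for ENZ against Vehicle, from 1707 to 610 and, with the covariate, 6 for ADF, from 2369 to 1202 and 1579 for ADF+ENZ, from 206 to between 20 and 693 against ENZ, from 3081 to 1197 and 0 against ADF, and from 587 to between 0 and 1363 for the interaction. Protein-coding TMM took the share of calls that were higher from 44.9% to 57.9% in ADF against Vehicle, from 53.6% to 41.5% in ADF+ENZ against ADF and from 70.4% to 60.3% in the interaction. Member counts ran from 159 to 259562 per library; the effect of depth on the calls was not tested.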
